A study of Mus musculus with 16 samples.

Results

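The 10 genes described here are the main folding machinery of the endoplasmic reticulum (ER) and the XBP1 arm of its stress response: Hspa5, Hsp90b1, Calr, Canx, Pdia3, Pdia4, Pdia6, Xbp1, Dnajb9 and Sdf2l1. They were chosen by symbol, with earlier results of these data known, so their counts beside the shares over all genes are descriptive. The symbols were matched to the deposited Ensembl identifiers through the GENCODE M21 mouse annotation. They are 10 of 54532 identifiers in the files and 10 of the 11654 genes tested. All 10 passed the filter on low values, and each was detected in all 16 libraries. RNA was sequenced from macrophages grown from the bone marrow of FVB/N mice, with 4 libraries in each of 4 groups. The groups were FOXO3-/- cells with dexamethasone, FOXO3-/- cells with vehicle, wildtype cells with dexamethasone and wildtype cells with vehicle. Dexamethasone, which activates the glucocorticoid receptor, was given at 100 nM for 24 h, and the vehicle was DMSO. All groups shared the strain, the culture with L929-conditioned medium and the extraction in TRIzol. The sources used here do not give the age or sex of the mice, the structure of the FOXO3 allele, or whether the 4 libraries of a group came from different mice. The p-values therefore cover the spread among the libraries at hand, which may be technical.

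Values are FPKM, fragments scaled to exon length and a depth set for each library, so that levels can be compared between genes. Read numbers recovered from the FPKM put between 16886745 and 20584573 reads on genes in a library, and a gene of 2 kb at 1 FPKM stood for 32.9 to 39.7 reads. The depth that the FPKM imply differed from the reads on genes. In KO-labelled dexamethasone libraries it was 17515589 to 19857067, against 18111087 to 20490838 reads on genes. In KO-labelled vehicle libraries it was 16568784 to 19319725, against 20153502 to 20584573. The gap was wider with vehicle there, so falls with dexamethasone would be smaller when scaled by reads on genes. That scaling was not run. Foxo3 itself read 22.9 to 26.4 FPKM in FOXO3-/- dexamethasone libraries, 23.2 to 24.7 FPKM in FOXO3-/- vehicle libraries, 21.9 to 24.2 FPKM in wildtype dexamethasone libraries and 22.9 to 26.4 FPKM in wildtype vehicle libraries. The gene total therefore gives no check of the genotype labels, and the libraries are called KO-labelled and WT-labelled throughout. The 8 macrophage markers (Adgre1, Csf1r, Cd68, Itgam, Lyz2, Mertk, Fcgr1, Cd14) all reached 1 FPKM in every group and summed to between 9590 and 15500 FPKM.

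Stromal RNA differed between the libraries. Col1a1, the collagen gene that fibroblasts and bone cells express and macrophages hardly do, read 1.18, 1.20, 15.0 and 25.5 FPKM in KO-labelled dexamethasone libraries and 4.76, 0.506, 0.395 and 95.8 FPKM in KO-labelled vehicle libraries. In WT-labelled libraries it read 356, 159, 286 and 19.1 FPKM with dexamethasone and 127, 124, 6.77 and 174 FPKM with vehicle. Most WT-labelled libraries thus stood above most KO-labelled ones, and 3 libraries stood on the other side of their own group: KO-labelled vehicle 4 was high, and WT-labelled dexamethasone 4 and WT-labelled vehicle 3 were low. Comparisons of genotypes are given below with and without these libraries. The 10 stromal markers summed to 4.49 to 66.9 FPKM in KO-labelled dexamethasone libraries, 2.08 to 290.0 FPKM in KO-labelled vehicle libraries, 48.5 to 822 FPKM in WT-labelled dexamethasone libraries and 22.3 to 418 FPKM in WT-labelled vehicle libraries.

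Proteins that enter the ER are folded by Hspa5 (BiP) and Hsp90b1 (GRP94), by the lectin chaperones Calr and Canx, which hold glycoproteins, and by protein disulfide isomerases, of which Pdia3 works with the lectin chaperones. When unfolded proteins build up, the sensor IRE1 (Ern1) splices Xbp1 mRNA into the form that encodes an active transcription factor, ATF6 is cut into another, and PERK (Eif2ak3) raises translation of ATF4. XBP1 and ATF6 act on the ER stress response element (ERSE) in promoters of chaperone genes, and Dnajb9 and Sdf2l1, co-chaperones of BiP, are known targets of this response. The FPKM of Xbp1 counts the spliced and the unspliced mRNA together, so it does not measure splicing.

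The genes lie, in GRCm38 with GENCODE M21, at chr2:34771970-34777547 (Hspa5, ENSMUSG00000026864), chr10:86690209-86705509 (Hsp90b1, ENSMUSG00000020048), chr8:84841850-84846934 (Calr, ENSMUSG00000003814), chr11:50293961-50325673 (Canx, ENSMUSG00000020368) and chr2:121413775-121438687 (Pdia3, ENSMUSG00000027248). The others lie at chr6:47796141-47813430 (Pdia4, ENSMUSG00000025823), chr12:17266545-17284770 (Pdia6, ENSMUSG00000020571), chr11:5520659-5525893 (Xbp1, ENSMUSG00000020484), chr12:44205559-44210326 (Dnajb9, ENSMUSG00000014905) and chr16:17130138-17132383 (Sdf2l1, ENSMUSG00000022769). FPKM sum over all exons of a gene.

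The promoters show which of the 10 genes carry the element in its exact form. ERSE was searched as CCAAT, 9 bases of any kind and CCACG, on both strands in the 250 bases before each RefSeq start (GRCm38.p6, the assembly of the submitters' build). It was found before 5 of the 10 genes, Hspa5, Hsp90b1, Calr, Canx and Pdia6, against 35 of 27025 genes with a promoter in the table, 0.13%. The element is known from promoters of chaperone genes, and the 10 were chosen as such genes, so this contrast is descriptive. Hsp90b1 held it at 2 places. The elements are shown with 10 flanking bases on each side, read on the strand that carries the motif, with the element in capitals. Hspa5 has it at chr2:34772015-34772053 on the plus strand, Calr at chr8:84847065-84847103 on the plus strand, Canx at chr11:50325790-50325828 on the minus strand and Pdia6 at chr12:17266481-17266519 on the plus strand. Hsp90b1 has the farther one at chr10:86705628-86705666 on the minus strand and the nearer one at chr10:86705523-86705561 on the plus strand.
Hspa5: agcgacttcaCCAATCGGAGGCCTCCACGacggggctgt
Hsp90b1, farther: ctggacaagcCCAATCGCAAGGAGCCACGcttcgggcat
Hsp90b1, nearer: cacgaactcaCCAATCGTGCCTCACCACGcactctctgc
Calr: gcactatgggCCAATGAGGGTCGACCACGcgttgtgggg
Canx: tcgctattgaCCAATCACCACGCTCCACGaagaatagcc
Pdia6: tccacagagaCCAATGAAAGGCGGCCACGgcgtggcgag

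The CCAAT and CCACG blocks are the same in all 6 by the search, and the 9 bases between them differ from gene to gene. The other 5 genes, Pdia3, Pdia4, Xbp1, Dnajb9 and Sdf2l1, had no exact match in the window. None of the 10 windows held ERSE-II, searched as ATTGG, 1 base of any kind and CCACG, and present before 0.037% of genes, or the core of the XBP1-binding element, searched as TGACGTGG and present before 0.603% of genes. The palindrome bound by the glucocorticoid receptor, searched as AGAACA, 3 bases of any kind and TGTTCT, was in none of them either and in 0.0111% of genes. An exact form this rare would be absent from nearly any 10 genes, so the search does not show whether they hold receptor sites. The promoters of Sdf2l1 and Dnajb9 are printed whole, since Sdf2l1 is the gene with the largest fall in WT-labelled cells and Dnajb9 the one gene that rose (values below). Capitals mark each CCAAT box and each CCACG block on either strand, so ATTGG and CGTGG are the same blocks read on the other strand.
Sdf2l1, chr16:17132384-17132633, minus strand: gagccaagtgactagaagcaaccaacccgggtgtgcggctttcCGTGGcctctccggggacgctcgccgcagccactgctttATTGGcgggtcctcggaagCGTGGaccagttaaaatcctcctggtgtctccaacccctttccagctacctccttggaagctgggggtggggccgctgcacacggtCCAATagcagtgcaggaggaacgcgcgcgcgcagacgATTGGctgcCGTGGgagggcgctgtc
Dnajb9, chr12:44210069-44210318, minus strand: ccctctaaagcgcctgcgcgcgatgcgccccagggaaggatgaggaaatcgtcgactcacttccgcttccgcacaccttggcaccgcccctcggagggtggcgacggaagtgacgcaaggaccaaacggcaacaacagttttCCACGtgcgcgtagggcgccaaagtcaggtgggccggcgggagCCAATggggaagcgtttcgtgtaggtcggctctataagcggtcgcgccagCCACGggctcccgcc
Sdf2l1 had 3 CCAAT boxes and 3 CCACG blocks, and Dnajb9 had 1 and 2, none of them at the spacing of the exact element. Among all genes of the promoter table, 37.5% held a CCAAT box and 31.0% a CCACG block in this window.

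The levels themselves spanned a wide range. In KO-labelled vehicle libraries Calr was highest at 429 ± 60.1 FPKM (mean ± SD, n = 4, as for all means below), followed by Pdia3 at 170.4 ± 11.0 FPKM and Hspa5 at 155 ± 12.4 FPKM, whose libraries overlapped. Canx came next at 109.8 ± 7.23 FPKM. Sdf2l1 at 83.4 ± 11.5 FPKM and Hsp90b1 at 79.6 ± 8.31 FPKM overlapped, as did Pdia6 at 46.7 ± 5.77 FPKM and Xbp1 at 44.0 ± 2.72 FPKM. Pdia4 at 33.7 ± 2.36 FPKM and Dnajb9 at 11.7 ± 0.751 FPKM were lowest. The genes thus formed steps, with the lectin chaperone Calr far above its membrane-bound relative Canx.

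**Figure D1:**
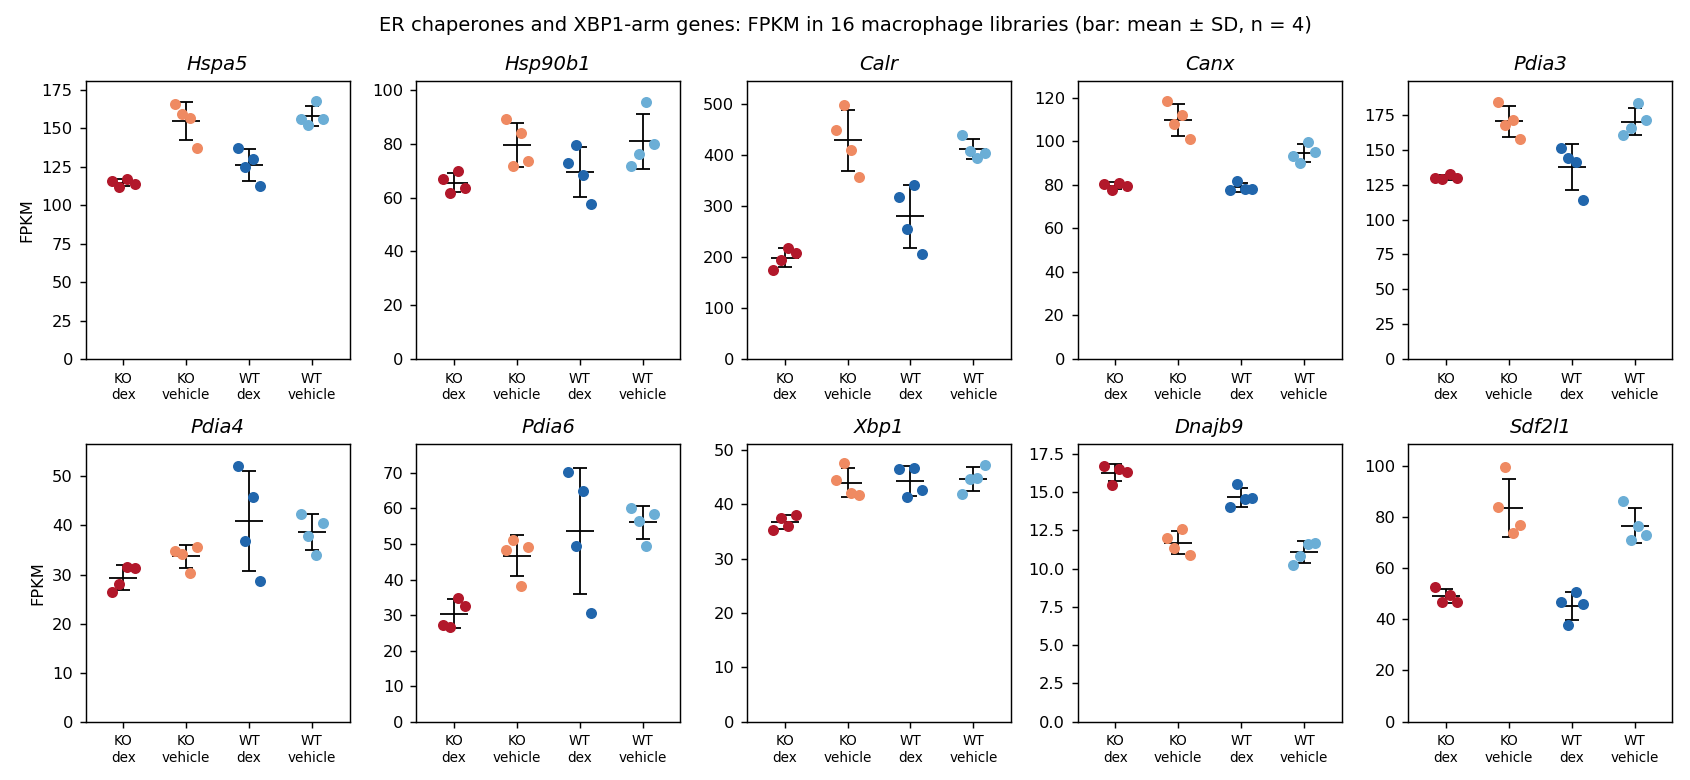
FPKM of each of the 10 genes in the 16 libraries (linear axes from 0), with KO-labelled dexamethasone, KO-labelled vehicle, WT-labelled dexamethasone and WT-labelled vehicle from left to right; points are libraries, and bars are mean ± SD (n = 4). Calr, Canx, Hspa5, Pdia3 and Sdf2l1 sit lower with dexamethasone than with vehicle in both genotypes, and Dnajb9 sits higher.

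Dexamethasone against vehicle in the KO-labelled cells asks how the ER genes respond to the receptor agonist in libraries labelled FOXO3-/-. Of the 10 genes, 7 fell and 1 rose, at an adjusted p under 0.05 from limma over all genes tested, where 24.1% of genes fell and 15% rose, 39.1% in all. In 8 of the 10 every treated library was below every vehicle library and in 1 above, as in 23.9% and 16.6% of all genes. The median log2 difference of the 10 was -0.40, against -0.05 over all genes tested. The lectin chaperones, BiP, Pdia3, Pdia6, Xbp1 and Sdf2l1 were lower with dexamethasone, Dnajb9 was higher, and Hsp90b1 and Pdia4 did not pass the test.

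Among the chaperones, Calr showed the widest gap. It read 175, 194, 218 and 209 FPKM in KO-labelled dexamethasone libraries, against 450.2, 499, 411 and 357 FPKM in KO-labelled vehicle libraries. Every dexamethasone library was below every vehicle library, and the level fell to 0.466 times that of vehicle on the scale of FPKM + 1 (log2 difference -1.10 ± 0.14 SE, limma adjusted p = 2.78e-05). Canx read 80.4, 77.5, 81.0 and 79.3 FPKM with dexamethasone, against 118, 108, 112 and 101 FPKM with vehicle. These groups did not overlap, and the dexamethasone libraries lay within a few FPKM of each other (log2 difference -0.46 ± 0.05 SE, limma adjusted p = 1.36e-05). Hspa5, the master chaperone that also holds the stress sensors inactive, read 116, 112, 117 and 113 FPKM with dexamethasone, against 166, 159, 156 and 137 FPKM with vehicle. Its groups were apart as well (log2 difference -0.43 ± 0.07 SE, limma adjusted p = 0.000238). Hsp90b1, the ER member of the HSP90 family, read 67.0, 61.7, 69.7 and 63.6 FPKM with dexamethasone, against 89.2, 71.7, 83.9 and 73.7 FPKM with vehicle. The libraries did not overlap, yet the difference missed the threshold (log2 difference -0.27 ± 0.11 SE, limma adjusted p = 0.0554). Without KO-labelled vehicle 2, WT-labelled dexamethasone 2, WT-labelled dexamethasone 4 or WT-labelled vehicle 3 it passed, with adjusted p = 0.045, 0.045, 0.0298 and 0.034 in that order. About 10.3% of the exon bases of Hsp90b1 are shared with an antisense pseudogene, 1810014B01Rik (0.681 FPKM on average), so a small part of its reads could be split between them.

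The disulfide isomerases behaved unequally. Pdia3 read 129, 129, 133 and 129.5 FPKM in KO-labelled dexamethasone libraries, against 185, 168, 171 and 158 FPKM in KO-labelled vehicle libraries. All 4 dexamethasone libraries were lower (log2 difference -0.38 ± 0.08 SE, limma adjusted p = 0.00177). Pdia6, which also acts on the sensor IRE1, read 27.3, 26.5, 34.9 and 32.6 FPKM with dexamethasone, against 48.4, 51.2, 38.3 and 49.1 FPKM with vehicle. Its groups did not overlap, and the call was a close one (log2 difference -0.61 ± 0.20 SE, limma adjusted p = 0.0241). It was lost without KO-labelled dexamethasone 1 or 2 (adjusted p = 0.0642 and 0.0676) and without KO-labelled vehicle 1 or 2 (adjusted p = 0.0541 and 0.0651), and with no filter on low values (0.0571). Pdia4 read 26.5, 28.1, 31.6 and 31.3 FPKM with dexamethasone, against 34.7, 34.2, 30.3 and 35.6 FPKM with vehicle. The groups overlapped and the difference did not pass the test (log2 difference -0.19, 95% interval -0.49 to 0.11, limma adjusted p = 0.301).

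The XBP1 arm split. Xbp1 read 35.2, 37.5, 36.0 and 38.1 FPKM in KO-labelled dexamethasone libraries, against 44.5, 47.6, 42.1 and 41.7 FPKM in KO-labelled vehicle libraries. All 4 treated libraries were lower, by a small amount (log2 difference -0.25 ± 0.06 SE, limma adjusted p = 0.00401). Sdf2l1 read 52.7, 46.9, 49.6 and 46.8 FPKM with dexamethasone, against 84.0, 99.3, 73.5 and 76.9 FPKM with vehicle. This was the second widest fall of the 10 (log2 difference -0.75 ± 0.10 SE, limma adjusted p = 5.08e-05). Dnajb9 (ERdj4), the co-chaperone that binds IRE1, read 16.7, 15.5, 16.5 and 16.3 FPKM with dexamethasone, against 12.02, 11.3, 12.6 and 10.9 FPKM with vehicle. It was the only one of the 10 that rose, with every treated library above every vehicle library (log2 difference 0.45 ± 0.06 SE, limma adjusted p = 3.04e-05). The ratio of Hspa5 to Dnajb9 FPKM was 6.91 to 7.23 in KO-labelled dexamethasone libraries and 12.4 to 14.1 in KO-labelled vehicle libraries. Quantile normalization, which forces all libraries to 1 distribution, ended the calls of Pdia3 (adjusted p = 0.234), Pdia6 (0.124) and Xbp1 (0.316) and kept 5 of the 8.

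In the WT-labelled cells, 5 of the 10 genes fell with dexamethasone and 1 rose, against 18.2% and 11.9% of all genes tested, 30.1% in all. The same 6 had no overlap between treated and vehicle libraries, in the same directions, as did 16.5% of all genes below and 10.8% above. The median log2 difference was -0.24, against -0.02 over all genes. Hspa5, Calr, Canx, Pdia3 and Sdf2l1 were lower, Dnajb9 was higher, and Hsp90b1, Pdia4, Pdia6 and Xbp1 did not pass the test. Leaving out any 1 of the 16 libraries left 6 of the 10 genes called. The 5 genes that fell and the 1 that rose also did so in the KO-labelled cells; 14.7% of all genes fell in both genotypes and 8.41% rose in both.

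Sdf2l1 read 46.6, 37.7, 50.5 and 46.1 FPKM in WT-labelled dexamethasone libraries, against 86.0, 71.1, 76.3 and 73.0 FPKM in WT-labelled vehicle libraries. Its fall had the same size as in the KO-labelled cells (log2 difference -0.75 ± 0.10 SE, limma adjusted p = 7.46e-05). Calr read 317, 255, 341 and 205 FPKM with dexamethasone, against 440.3, 408, 394 and 405 FPKM with vehicle. The groups did not overlap, but the treated libraries spread widely, with WT-labelled dexamethasone 4 the lowest (log2 difference -0.58 ± 0.14 SE, limma adjusted p = 0.00602). Hspa5 read 137, 124, 129.8 and 113 FPKM with dexamethasone, against 156, 152, 168 and 156 FPKM with vehicle, without overlap (log2 difference -0.33 ± 0.07 SE, limma adjusted p = 0.00258).

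Canx read 77.7, 81.8, 77.9 and 78.0 FPKM in WT-labelled dexamethasone libraries, against 93.0, 90.2, 99.8 and 95.3 FPKM in WT-labelled vehicle libraries. The treated libraries sat at the level of the KO-labelled treated ones (log2 difference -0.26 ± 0.05 SE, limma adjusted p = 0.00225). Pdia3 read 151, 144, 141 and 114 FPKM with dexamethasone, against 161, 165, 183 and 171 FPKM with vehicle, again without overlap (log2 difference -0.31 ± 0.08 SE, limma adjusted p = 0.00944). Dnajb9 read 14.0, 15.5, 14.5 and 14.6 FPKM with dexamethasone, against 10.2, 10.8, 11.6 and 11.7 FPKM with vehicle. It rose in all 4 treated libraries relative to every vehicle library (log2 difference 0.37 ± 0.06 SE, limma adjusted p = 0.000211). The ratio of Hspa5 to Dnajb9 FPKM was 7.72 to 9.78 in WT-labelled dexamethasone libraries and 13.4 to 15.2 in WT-labelled vehicle libraries.

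The 4 genes that did not pass overlapped between treated and vehicle libraries. Xbp1 read 46.5, 41.3, 46.6 and 42.6 FPKM in WT-labelled dexamethasone libraries, against 41.8, 44.6, 44.8 and 47.2 FPKM in WT-labelled vehicle libraries (log2 difference -0.01, 95% interval -0.14 to 0.12, limma adjusted p = 0.903). Pdia6 read 70.2, 49.5, 64.8 and 30.7 FPKM with dexamethasone, against 60.03, 56.5, 49.5 and 58.4 FPKM with vehicle. Its treated libraries held both the lowest and the highest of the 8 values, in the order of their Col1a1 levels (log2 difference -0.12, 95% interval -0.54 to 0.30, limma adjusted p = 0.680). Pdia4 read 52.2, 36.9, 45.8 and 28.7 FPKM with dexamethasone, against 42.4, 37.8, 34.0 and 40.6 FPKM with vehicle (log2 difference 0.05, 95% interval -0.25 to 0.35, limma adjusted p = 0.83). Hsp90b1 read 73.1, 79.7, 68.3 and 57.6 FPKM with dexamethasone, against 71.9, 76.1, 95.6 and 79.9 FPKM with vehicle (log2 difference -0.21, 95% interval -0.44 to 0.01, limma adjusted p = 0.150). Quantile normalization ended the calls of Hspa5 (adjusted p = 0.0875), Canx (0.156) and Pdia3 (0.192), and a fit on the WT-labelled libraries alone ended that of Pdia3 (0.0594). With libraries under 50 FPKM of Col1a1 alone, which leaves 1 WT-labelled library with each agent, taken to vary as the KO-labelled ones do, Dnajb9 was not called (log2 difference 0.30, adjusted p = 0.0809) and Hsp90b1 was (-0.72, 0.0162).

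**Figure D2:**
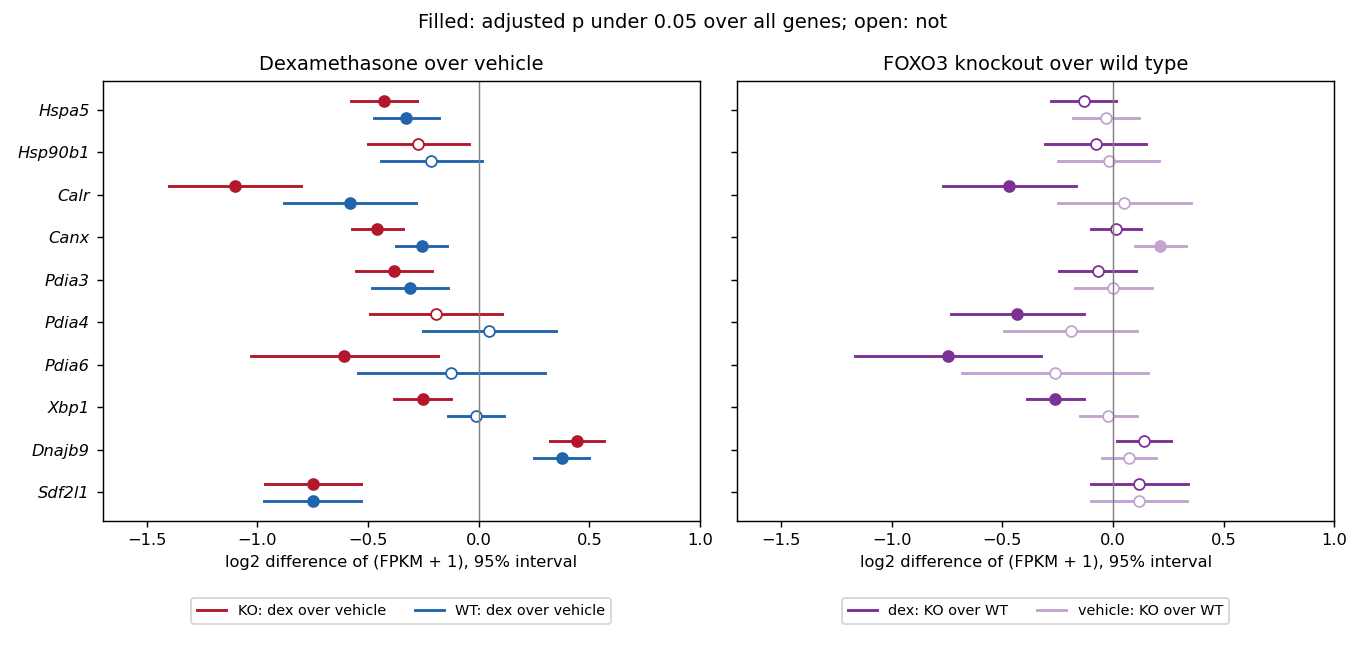
Log2 differences of FPKM + 1 with 95% intervals from limma for the 10 genes: left, dexamethasone over vehicle in KO-labelled (red) and WT-labelled (blue) cells; right, KO-labelled over WT-labelled with dexamethasone (dark purple) and with vehicle (light purple). Filled points passed an adjusted p of 0.05: 8 in KO-labelled cells and 6 in WT-labelled cells on the left, 4 with dexamethasone and 1 with vehicle on the right.

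Markers of other cell types moved with dexamethasone in part. Of 8 B and plasma cell markers, 2 reached 1 FPKM in any library, Ighm and Cd79b, and the 8 summed to 13.5 to 16.9 FPKM in KO-labelled dexamethasone libraries, 32.8 to 84.3 FPKM in KO-labelled vehicle libraries, 11.9 to 24.4 FPKM in WT-labelled dexamethasone libraries and 22.0 to 61.9 FPKM in WT-labelled vehicle libraries. The plasma cell genes Mzb1 and Jchain stayed at or under 0.477 and 0.249 FPKM in every library. No dendritic cell marker reached 1 FPKM, and the 8 neutrophil markers summed to 4.55 FPKM at most. Macrophage genes changed too: in KO-labelled cells 5 of the 8 markers fell and 2 rose with dexamethasone, and in WT-labelled cells 6 fell and 1 rose. In KO-labelled cells Mertk, the receptor for uptake of dead cells, averaged 111 FPKM with dexamethasone and 26.6 FPKM with vehicle, and Fcgr1, the high-affinity Fc receptor, averaged 12.5 FPKM with dexamethasone and 62.7 FPKM with vehicle. None of the 8 stromal markers tested passed the test with dexamethasone in either genotype; their spread was wide, and their median log2 difference was -0.08 in KO-labelled and 0.85 in WT-labelled cells. In bulk RNA, fewer cells of a type and less RNA per cell cannot be told apart.

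The other ER genes were read from lists of 68, of which 66 were tested; Derl3 and Chac1 were too low. In KO-labelled cells 21 of the 66 fell with dexamethasone and 4 rose, and in WT-labelled cells 11 fell and 1 rose. Of all genes tested, 24.1% fell and 15% rose in KO-labelled cells and 18.2% fell and 11.9% rose in WT-labelled cells, so the count that fell in WT-labelled cells is near the background, and the counts that rose are under it. These shares are the background of each list below. In both genotypes 9 fell, Atf4, Creld2, Erp29, Fkbp2, Hyou1, Rpn1, Spcs2, Ssr1 and Vcp, and 1 rose, Herpud1.

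Of 22 other folding genes, 7 fell and 1 rose in KO-labelled cells with dexamethasone (median log2 difference -0.14), and 4 fell in WT-labelled cells (median 0.00 to 2 decimals). Erp29, a lumenal protein of the disulfide isomerase family without the active site, averaged 21.7 ± 1.29 FPKM in KO-labelled dexamethasone libraries and 34.9 ± 3.44 FPKM in KO-labelled vehicle libraries (log2 difference -0.66, limma adjusted p = 3.31e-05). In WT-labelled libraries it averaged 15.8 ± 1.57 FPKM with dexamethasone and 27.5 ± 2.45 FPKM with vehicle (log2 difference -0.76, limma adjusted p = 1.55e-05). The stress-induced ER proteins Creld2 and Manf, and Hyou1, an exchange factor for BiP, fell in KO-labelled cells with log2 differences of -0.58, -0.59 and -0.55. Creld2 and Hyou1 also fell in WT-labelled cells, with log2 differences of -0.29 and -0.30, and Fkbp2, a prolyl isomerase, fell there with -0.59.

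Of 12 degradation genes tested, 4 fell and 2 rose in KO-labelled cells, and 1 fell and 1 rose in WT-labelled cells, few beside the 18.2% and 11.9% of all genes there. Herpud1, a membrane protein of the ER degradation complex and a known stress target, read 43.7, 41.0, 38.5 and 37.7 FPKM in KO-labelled dexamethasone libraries, against 25.8, 28.0, 30.4 and 33.1 FPKM in KO-labelled vehicle libraries. In WT-labelled libraries it read 38.0, 34.4, 36.9 and 43.0 FPKM with dexamethasone, against 20.4, 27.0, 18.7 and 25.5 FPKM with vehicle. It moved with Dnajb9 and against the chaperones, without overlap in either genotype (log2 differences 0.45 and 0.72, limma adjusted p = 0.00534 and 0.000224). Its promoter holds ERSE-II, shown here in capitals with 10 flanking bases, at chr8:94386367-94386397 on the plus strand.
Herpud1: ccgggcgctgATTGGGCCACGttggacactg
Vcp, the ATPase that pulls proteins out of the ER membrane, fell in both genotypes, with log2 differences of -0.53 and -0.28 (limma adjusted p = 3.31e-05 and 0.00731). Derl1 and Sel1l, parts of the retrotranslocation complex, fell in KO-labelled cells with log2 differences of -0.36 and -0.39.

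Among 6 sensors and their proteases, Atf6b alone fell, in KO-labelled cells (log2 difference -0.39, limma adjusted p = 0.00244), and none passed in WT-labelled cells. Ern1, Atf6 and Eif2ak3, the sensors themselves, passed in neither. Of 21 genes of translocation, signal cleavage and glycosylation, 6 fell and 1 rose in KO-labelled cells and 5 fell in WT-labelled cells. Rpn1, a subunit of the oligosaccharyltransferase, averaged 44.8 ± 0.625 FPKM in KO-labelled dexamethasone libraries and 64.8 ± 5.06 FPKM in KO-labelled vehicle libraries (log2 difference -0.52, limma adjusted p = 7.27e-06). It averaged 46.3 ± 2.23 FPKM in WT-labelled dexamethasone libraries and 60.9 ± 1.68 FPKM in WT-labelled vehicle libraries (log2 difference -0.39, limma adjusted p = 0.000153). Spcs2, a subunit of the signal peptidase, fell in both with log2 differences of -0.27 and -0.31, while Serp1, a stress-associated protein of the translocon, rose in KO-labelled cells (0.46, limma adjusted p = 0.00276).

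**Figure D3:**
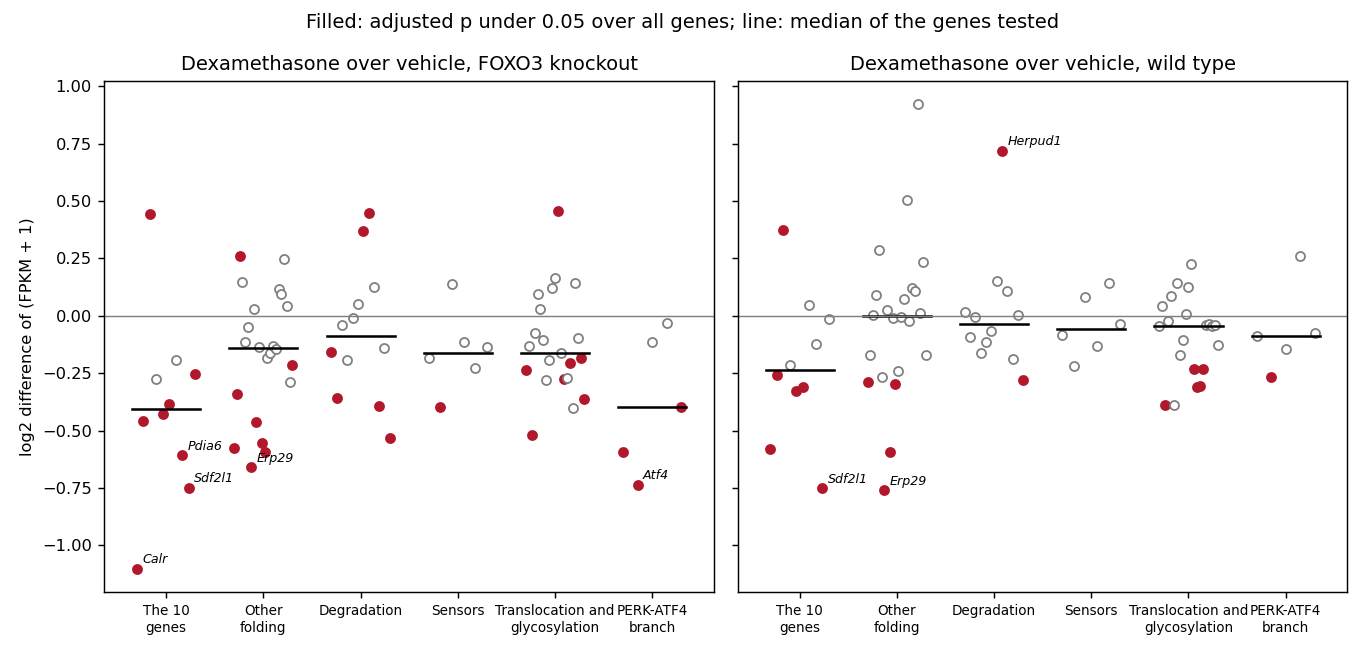
Log2 difference of FPKM + 1, dexamethasone over vehicle, of every tested gene in 6 lists of ER genes, in KO-labelled cells (left) and WT-labelled cells (right); filled points passed an adjusted p of 0.05, and lines are list medians. The median of the 10 genes is -0.40 on the left and -0.24 on the right, and Herpud1 and Dnajb9 stand above 0 in both panels.

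In the PERK branch, the transcription factor gene Atf4 read 28.9, 29.2, 27.0 and 26.5 FPKM in KO-labelled dexamethasone libraries, against 46.2, 47.9, 47.3 and 46.9 FPKM in KO-labelled vehicle libraries. It read 43.5, 45.1, 45.9 and 40.3 FPKM in WT-labelled dexamethasone libraries, against 56.0, 54.0, 49.9 and 51.2 FPKM in WT-labelled vehicle libraries. It fell in both genotypes, and the 4 KO-labelled dexamethasone libraries were lower than all 12 others (log2 differences -0.74 and -0.27, limma adjusted p = 1.89e-07 and 0.00221). Of its targets, Trib3 and Asns fell in KO-labelled cells with log2 differences of -0.40 and -0.59, and neither passed in WT-labelled cells. Trib3 was near the floor, at 0.27 to 0.569 FPKM with dexamethasone and 0.628 to 1.25 FPKM with vehicle in KO-labelled libraries. Its log2 differences, here and below, thus depend strongly on the 1 FPKM added. Asns rose with Col1a1 within groups (slope 0.11, limma adjusted p = 0.00481), and its highest KO-labelled vehicle value (8.38 FPKM) was in library 4, which was high in Col1a1.

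Genes with the exact ERSE did not all move alike. Of the 35 such genes, 13 were tested; with dexamethasone 7 of these fell and 1 rose in KO-labelled cells, and 6 fell and 1 rose in WT-labelled cells. Among the 8 that are not of the 10 genes, 3 fell and 1 rose in each genotype. Of all genes tested, 24.1% fell and 15% rose in KO-labelled cells, and 18.2% fell and 11.9% rose in WT-labelled cells. So few genes say little about the element. Creld2 was one of those that fell, while Dnajc3, Syvn1 and Ero1lb, ER genes with the element, were not called in either genotype. Of the 5 genes among the 10 without it, Sdf2l1 and Pdia3 fell in both genotypes and Xbp1 fell in KO-labelled cells alone. Pdia4 passed in neither, and Dnajb9 rose in both.

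Whether the response differs between the genotypes was tested as the dexamethasone effect in KO-labelled cells minus that in WT-labelled cells. None of the 10 genes passed with limma (0.129% of all genes tested did, 0.0686% with a lower and 0.0601% with a higher effect in KO-labelled cells), nor with voom on the recovered reads. At an unadjusted p under 0.05, 3 of the 10 stood out, against 11.7% of all genes. These were Calr (difference of log2 differences -0.52, 95% interval -0.94 to -0.10, limma adjusted p = 0.316), Canx (-0.20, -0.36 to -0.04, adjusted p = 0.315) and Xbp1 (-0.24, -0.42 to -0.06, adjusted p = 0.283), all with a deeper fall in KO-labelled cells. For Sdf2l1 the difference was 0.00 to 2 decimals, with an interval of -0.31 to 0.31, and for Dnajb9 it was 0.07, with an interval of -0.10 to 0.24. Without WT-labelled dexamethasone 4 Calr passed (-0.66, adjusted p = 0.0470). Without the 3 libraries apart in Col1a1, where the genotypes are farthest apart in stromal RNA, Calr (-0.72, adjusted p = 0.0168) and Canx (-0.27, adjusted p = 0.0422) passed. Over all genes 330 and 725 passed in these fits, in that order, against 15 with all libraries. Across 27 alternatives Calr passed in 3 and Canx in 2, and the Calr difference ran from -0.74 to -0.25.

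Of the 66 other ER genes, Atf4 alone passed this test (difference -0.47 ± 0.08 SE, 95% interval -0.64 to -0.30, limma adjusted p = 0.0394). The size held at -0.51 to -0.44 when each library was left out in turn, but the call was lost without any one of 13 of the 16 libraries, the exceptions being KO-labelled vehicle 4, WT-labelled dexamethasone 4 and WT-labelled vehicle 1. Adjusted p then ran up to 0.0978. Median-ratio scaling gave adjusted p = 0.0512 and quantile normalization 0.164.

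With vehicle, KO-labelled against WT-labelled cells compares the genotypes without the agonist. Of the 10 genes, 1 was higher in KO-labelled cells and none was lower, where 3.37% of all genes tested were higher and 1.3% lower, 4.68% in all. Canx, at 118, 108, 112 and 101 FPKM in KO-labelled vehicle libraries, against 93.0, 90.2, 99.8 and 95.3 FPKM in WT-labelled vehicle libraries, was the one (log2 difference 0.21 ± 0.05 SE, limma adjusted p = 0.0363). The groups did not overlap, as in 7.66% of all genes above and 2.97% below, and the difference is small. The call was lost without any one of 11 of the 16 libraries (adjusted p up to 0.129; the 5 that kept it were KO-labelled vehicle 4, WT-labelled dexamethasone 2, 3 and 4, and WT-labelled vehicle 3) and with Col1a1 as a covariate (0.17, adjusted p = 0.221). The other 9 genes overlapped between the genotypes, with log2 differences between -0.26 for Pdia6 and 0.12 for Sdf2l1. Of the 66 other ER genes, Erp29 (0.33) and Serp1 (0.54) were higher and Trib3 (-0.45) and Ppp1r15a (-0.46), the phosphatase subunit that ends the PERK signal, were lower. Without the 3 libraries apart in Col1a1 the log2 differences were 0.28 for Canx, 0.44 for Erp29, 0.67 for Serp1, -0.47 for Trib3 and -0.56 for Ppp1r15a, and all 5 passed. With Col1a1 as a covariate they were 0.17, 0.21, 0.38, -0.37 and -0.39 in the same order, and none of the 5 passed. With libraries under 50 FPKM of Col1a1 alone, which leaves 1 WT-labelled vehicle library, they were 0.17, 0.23, 0.30, -0.32 and -0.27, and none passed.

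With dexamethasone, 4 of the 10 genes were lower in KO-labelled than in WT-labelled cells and none was higher, where 12.4% of all genes tested were lower and 14.3% higher, 26.7% in all. They were Pdia6 (log2 difference -0.75 ± 0.20 SE, limma adjusted p = 0.0151), Calr (-0.47 ± 0.14 SE, 0.0263), Pdia4 (-0.43 ± 0.14 SE, 0.0355) and Xbp1 (-0.26 ± 0.06 SE, 0.00771). Xbp1 was the one of the 10 without overlap, as in 10.2% of all genes below and 16.3% above, at 35.2 to 38.1 FPKM in KO-labelled dexamethasone libraries and 41.3 to 46.6 FPKM in WT-labelled dexamethasone libraries. For Pdia6, Calr and Pdia4, WT-labelled dexamethasone 4 lay within the KO-labelled range.

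These groups also differed in stromal RNA: 7 of the 8 stromal markers tested were lower in KO-labelled than in WT-labelled dexamethasone libraries, with a median log2 difference of -3.20. WT-labelled dexamethasone 4, the one WT-labelled treated library with little Col1a1 (19.1 FPKM), read 30.7 FPKM of Pdia6, 205 FPKM of Calr and 28.7 FPKM of Pdia4. The KO-labelled dexamethasone libraries read 26.5 to 34.9 FPKM of Pdia6, 175 to 218 FPKM of Calr and 26.5 to 31.6 FPKM of Pdia4. Its Xbp1, at 42.6 FPKM, stayed above their 35.2 to 38.1 FPKM. With libraries under 50 FPKM of Col1a1 alone, which leaves this single WT-labelled treated library, the log2 differences were -0.02 for Pdia6, -0.05 for Calr, 0.03 for Pdia4 and -0.21 for Xbp1, and none passed (adjusted p = 0.963, 0.875, 0.926 and 0.222). With Col1a1 as a covariate they were -0.36, -0.38, -0.15 and -0.26 (adjusted p = 0.302, 0.235, 0.594 and 0.0618). Without the 3 libraries apart in Col1a1, where the genotypes are farthest apart in stromal RNA, they were -0.99, -0.61, -0.59 and -0.28, and all 4 passed, as did 2 more of the 10.

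Single libraries mattered here as well. The Pdia6 call was lost without WT-labelled dexamethasone 1 (adjusted p = 0.0557) or 3 (0.0550). That of Calr was lost without KO-labelled dexamethasone 1 (0.0803) or 2 (0.0630) or WT-labelled dexamethasone 1 (0.0882) or 3 (0.0895). That of Pdia4 was lost without KO-labelled dexamethasone 1 (0.0983), 2 (0.0838) or 3 (0.0510) or WT-labelled dexamethasone 1 (0.120) or 3 (0.108). Hspa5 was called lower without WT-labelled dexamethasone 4 (-0.19, 0.0420). Xbp1 was called with each library left out.

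Within groups, 2 of the 10 genes rose with Col1a1 (limma slope on log2(Col1a1 FPKM + 1) with group means fitted, adjusted p under 0.05), where 11.7% of all genes had a positive slope and 13.5% a negative one. Pdia6 had a slope of 0.09 ± 0.03 SE (adjusted p = 0.0294) and Pdia4 a slope of 0.07 ± 0.02 SE (adjusted p = 0.0202), both in log2 units per log2 unit of Col1a1. The other 8 slopes lay between -0.01 and 0.02 and did not pass. In WT-labelled dexamethasone libraries Pdia6 and Pdia4 followed the order of Col1a1 without exception. In vehicle libraries, KO-labelled vehicle 3 and WT-labelled vehicle 3, the libraries with the least Col1a1 in their groups, had the least Pdia6 (38.3 and 49.5 FPKM) and the least Pdia4 (30.3 and 34.0 FPKM). KO-labelled vehicle 2, with nearly as little Col1a1, had the most Pdia6 of its group (51.2 FPKM).

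Of the other folding genes, Serpinh1 (HSP47), the chaperone of collagen, had a slope of 0.87, and the disulfide isomerases Pdia5 and Txndc5 had slopes of 0.23 and 0.16. Serpinh1 read 1.43, 1.71, 13.1 and 17.6 FPKM in KO-labelled dexamethasone libraries and 167, 105, 174 and 13.4 FPKM in WT-labelled dexamethasone libraries. With vehicle it read 3.56, 0.939, 0.613 and 59.9 FPKM in KO-labelled libraries and 81.4, 92.7, 4.62 and 79.3 FPKM in WT-labelled ones, so its order was nearly that of Col1a1. Edem1, Edem2 and Edem3, which hand glycoproteins to degradation, had negative slopes between -0.07 and -0.06.

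**Figure D4:**
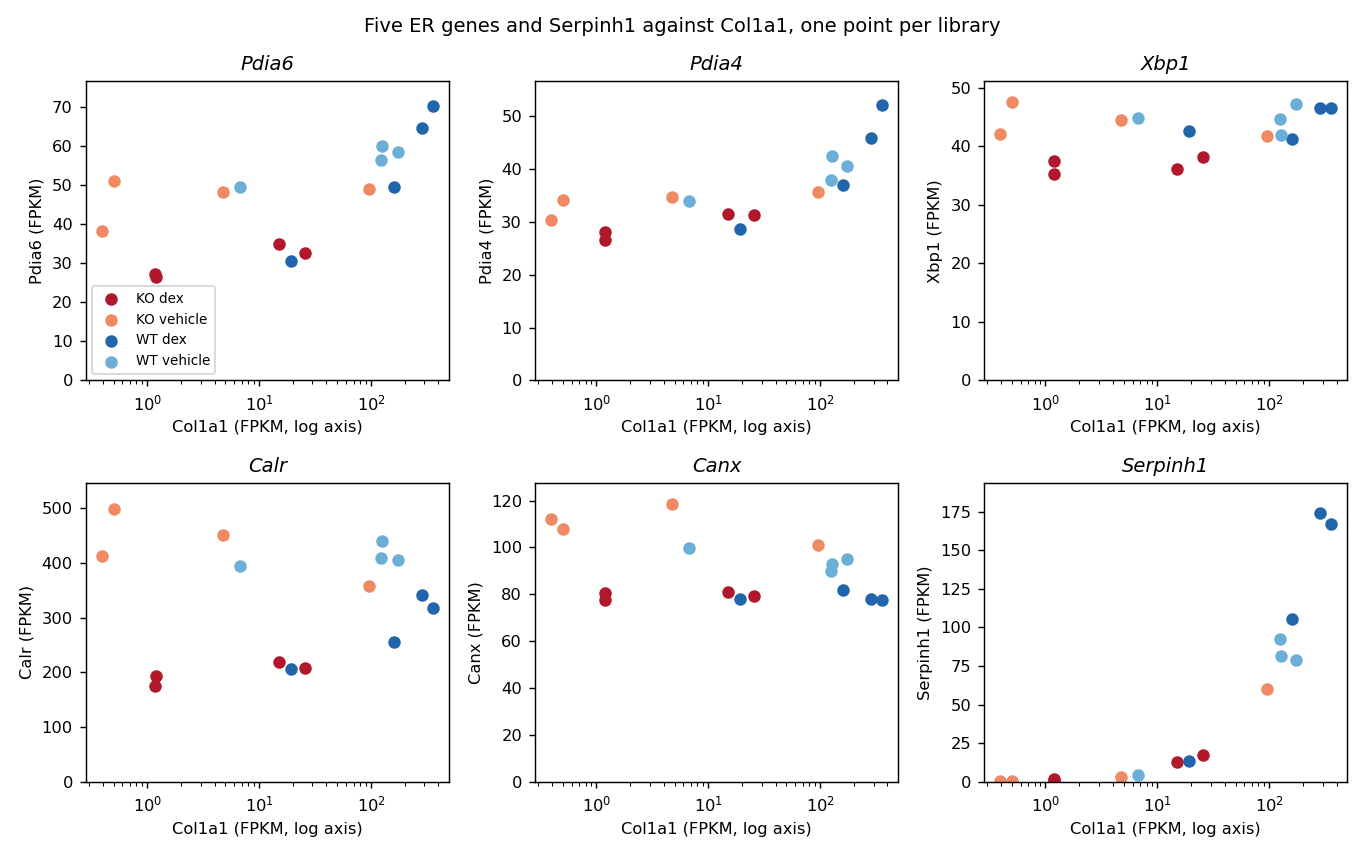
FPKM of Pdia6, Pdia4, Xbp1, Calr, Canx and Serpinh1 (linear axes from 0) against Col1a1 FPKM (log axis), 1 point for each of the 16 libraries, coloured by group. Serpinh1 climbs with Col1a1 across all groups, Pdia6 and Pdia4 climb among WT-labelled dexamethasone libraries, and the 8 Canx points with dexamethasone stay between 77.5 and 81.8 FPKM whatever the Col1a1 level.

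The dexamethasone calls were also read with stromal RNA taken into account. In KO-labelled cells with libraries under 50 FPKM of Col1a1 alone (4 treated and 3 vehicle), all 8 called genes and Hsp90b1 passed. Over all 11654 genes 5155 passed there, against 4562 with all libraries. With Col1a1 as a covariate 8 of the 10 were called in KO-labelled and 6 in WT-labelled cells. Over all genes 5317 and 4088 were called with the covariate, against 4562 and 3508 without it, so calls rose among all genes too.

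Of the other ER genes, 14 of 66 were lower and 6 higher in KO-labelled than in WT-labelled dexamethasone libraries, where 12.4% of all genes were lower and 14.3% higher. With Col1a1 as a covariate 3 of them were lower and 1 higher, while 863 genes in all were called, against 3114 without the covariate. Atf4 was lower (-0.63, limma adjusted p = 6.74e-06), with -0.61 when Col1a1 was a covariate (adjusted p = 0.000204) and -0.67 without the 3 libraries apart in Col1a1 (adjusted p = 1.005e-06). With libraries under 50 FPKM of Col1a1 alone its log2 difference was -0.52, against the single WT-labelled treated library left. Ppp1r15a (-0.75) and Trib3 (-0.78) were lower too, and Serp1 (0.77) and Erp29 (0.43) were higher. Manf was lower (-0.47), and so was Mbtps1, the protease that cuts ATF6 (-0.47). Manf and Mbtps1 had positive slopes on Col1a1 within groups, and Serp1 had a negative one (-0.04, limma adjusted p = 0.0430). Without the 3 libraries, where the genotypes are farthest apart in stromal RNA, the log2 differences were -0.73 for Ppp1r15a, -0.83 for Trib3, 0.85 for Serp1, 0.49 for Erp29, -0.56 for Manf and -0.56 for Mbtps1, and all 6 passed. With Col1a1 as a covariate they were -0.66, -0.68, 0.58, 0.28, -0.25 and -0.24 in the same order. Erp29, Manf and Mbtps1 then lost the call (limma adjusted p = 0.0801, 0.26 and 0.131). With libraries under 50 FPKM of Col1a1 alone, they were -0.83, -0.62, 0.54, 0.26, -0.19 and -0.21 against that single library.

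Across the 16 libraries the 10 genes mostly followed each other. The Pearson correlation of each gene with the mean of the 10 (standardised log2 values) was 0.97 for Calr, 0.96 for Hspa5 and 0.95 for Pdia3, and the lowest positive ones were 0.59 for Pdia4 and 0.75 for Sdf2l1; each gene is part of that mean. Dnajb9 ran the other way, with -0.81. Of 10503 other protein-coding genes, the 10 with the highest correlation with this mean were Tpm4 (0.97), Actn1 (0.97), Dph6 (0.96), Vcp (0.96), Mdh2 (0.96), Ptpn9 (0.96), Apbb2 (0.95), Cd200 (0.95), Dlg3 (0.95) and Tmsb10 (0.95). These values describe 16 libraries that share the treatment, and Vcp was the one of them in the ER lists. Tpm4, a tropomyosin of the actin cytoskeleton, averaged 68.1 FPKM in KO-labelled dexamethasone libraries, 147 FPKM in KO-labelled vehicle libraries, 101 FPKM in WT-labelled dexamethasone libraries and 151 FPKM in WT-labelled vehicle libraries, lowest in the KO-labelled treated group and next lowest in the WT-labelled treated group, as for Calr.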

How the data were processed

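RNA from 16 libraries was analysed, grouped by the genotype and agent in the labels. The authors deposited 1 FPKM value per Ensembl gene and library; Bowtie2 2.2.3, TopHat2 2.0.12, HTSeq 0.6.1, DESeq2 and the builds GRCm38 and mm10 are named in the submitters' processing notes, with no roles given. GENCODE M21 matched 54495 of the 54532 identifiers. The deposited FPKM of 96.3% to 96.7% of values above 0 were whole reads within 0.05 when multiplied by M21 exon length and a library constant, so reads were recovered for 1 alternative. That alternative, voom, took its library sizes from these constants, so it kept the depth scaling of the FPKM. No 2 libraries of a group were identical, and all 24 pairs within groups differed by more than counting noise (chi-square over degrees of freedom 6.84 to 98.9).

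FPKM were taken as log2(FPKM + 1), genes reaching 1 FPKM in 4 or more libraries were kept (11654), and limma 3.58.1 in R 4.3.3 fitted 4 group means with trended variance. The 5 comparisons were adjusted by Benjamini-Hochberg over all genes, with a threshold of 0.05 and two-sided p. Alternatives were another pseudocount (0.1), no filter, median-ratio scaling, quantile normalization, array weights, only the groups compared, a replicate block, Col1a1 or a stromal score as a covariate, 2 subsets of libraries by Col1a1, voom on recovered reads, and each library left out. The slope on Col1a1 and the list of all genes with ERSE were added after seeing the data. The members and gene lists were chosen with earlier results of these data known. Named genes are the 10, up to 4 called genes with the smallest adjusted p per list and comparison, the markers, and the 10 genes most alike; genes outside this rule (Serpinh1, Pdia5, Txndc5, Edem1, Edem2, Edem3, Dnajc3, Syvn1, Ero1lb, Ern1, Atf6, Eif2ak3) were chosen after their values were seen. Promoters are from RefSeq (GRCm38.p6), matched by symbol for all 10 genes. The code was tested on simulated data. Figures used matplotlib 3.10.9.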

Additional observations from a re-analysis of the deposited data

Results flagged for a closer look

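In groups of 4 libraries, a library was set apart when its gap to the nearest other, divided by the range of the group, was above Dixon's 95% critical value; chance gives about 1 in 20 groups, and 9 of 156 groups over 39 genes were set apart. Of the 10 genes, Canx was set apart in WT-labelled dexamethasone 2 (81.8 FPKM, the others at 77.7 to 78.0 FPKM), and Pdia3 in KO-labelled dexamethasone 3 (133 FPKM, the others at 129 to 129.5 FPKM). Both are small steps in very tight groups. Col1a1 was set apart in KO-labelled vehicle 4 (95.8 FPKM), and Serpinh1 in the same library (59.9 FPKM, the others at 0.613 to 3.56 FPKM) and in WT-labelled vehicle 3 (4.62 FPKM, the others at 79.3 to 92.7 FPKM). Sel1l was set apart in these libraries too, at 26.9 FPKM in KO-labelled vehicle 4 (the others at 33.5 to 34.7 FPKM) and 30.9 FPKM in WT-labelled vehicle 3 (the others at 26.6 to 27.3 FPKM). Mbtps1 was low in WT-labelled vehicle 3 (9.15 FPKM, the others at 11.7 to 12.003 FPKM), and Derl1 was high in WT-labelled vehicle 4 (57.3 FPKM, the others at 51.2 to 51.4 FPKM).

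The dexamethasone effect on Atf4 differed between the genotypes by the interaction test, with a log2 difference of differences of -0.47 (KO-labelled minus WT-labelled).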

How the results depend on the processing

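The counts over all genes, the 10 genes and the 66 other ER genes are given in that order where all 3 moved. For dexamethasone in KO-labelled cells (4562, 8 and 25 called), quantile normalization left 5 of the 10, and in WT-labelled cells (3508, 6 and 12) it left 3, while libraries under 50 FPKM of Col1a1 left 2155 genes. For vehicle, KO-labelled against WT-labelled (545, 1 and 4), array weights gave 4840, 2 and 31, only the groups compared 244, 0 and 1, Col1a1 as a covariate 323, 0 and 0, and libraries under 50 FPKM of Col1a1 60, 0 and 0. Without the 3 libraries apart in Col1a1 there were 3958 genes and 26 other ER genes. Of the 10 genes none was called with median-ratio scaling, quantile normalization, the replicate block or the stromal score, and of the other ER genes no filter, quantile normalization and the stromal score left 1 each. For dexamethasone, KO-labelled against WT-labelled (3114, 4 and 20), array weights gave 6388, 7 and 39, Col1a1 as a covariate 863, 0 and 4, the stromal score 966, 0 and 4, and libraries under 50 FPKM of Col1a1 390, 0 and 3. Without the 3 libraries 5158 genes were called, and no filter or only the groups compared left 2 of the 10. Pdia4 changed sign there with libraries under 50 FPKM of Col1a1 (log2 difference 0.0272). For the interaction (15, 0 and 1), array weights gave 1391, 6 and 16, the 3 libraries left out 725, 2 and 5, no filter 6 genes, Col1a1 as a covariate 67 genes, the stromal score 124 genes, libraries under 50 FPKM of Col1a1 1 and 0 other ER genes, and voom 4 and 0 other ER genes; median-ratio scaling and quantile normalization left 0 other ER genes. The causes of these changes were not tested.

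With 1 library left out, the counts for dexamethasone in KO-labelled cells were 3761 to 4835, 7 to 9 and 21 to 28, and in WT-labelled cells 2898 to 3656, 6 and 8 to 15. For vehicle between genotypes they were 278 to 1623, 0 to 1 and 1 to 9, with the highest count without WT-labelled vehicle 3. For dexamethasone between genotypes they were 1517 to 4070, 1 to 5 and 10 to 24, with the lowest without WT-labelled dexamethasone 1. For the interaction they were 2 to 330, 0 to 1 and 0 to 1, with the highest without WT-labelled dexamethasone 4. Of 2677 single-gene values under an alternative, 2395 kept their side of the threshold and did not reverse a call, 255 lost the call, 26 gained one and 1, Pdia4 above, changed sign; 65 of the 2395 changed sign with no call in either setting. Median-ratio scaling moved 1 of 40 group means of the 10 genes by more than its SD. The share of called genes that were higher was 38.4% for dexamethasone in KO-labelled cells, against 48.5% with median-ratio scaling and 51.1% with quantile normalization, and 72.1% for vehicle between genotypes, against 60.4% and 61.6%.

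The replicate block left 1 gene called for the interaction, 0 of the 10 and 2 of the other ER genes for vehicle between genotypes, and 0 other ER genes for the interaction. The replicate numbers did not pair the libraries: same-numbered libraries deviated together in 8 of 24 pairs (correlation over 0.1; range -0.76 to 0.73), and 5 of 16 libraries matched their own number best. With 4 libraries a group and Col1a1 tied to genotype, differences between genotypes cannot be told apart from stromal RNA in these data. This holds for Pdia6, Pdia4, Calr and Xbp1 with dexamethasone and for Canx with vehicle. Gene totals do not show splicing of Xbp1.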
